A study of Homo sapiens with 6 samples.

Results

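The genes described here encode the enzymes that build and cap the sugar chains of proteins in the Golgi. They were taken from the deposited count table by symbol, as the polypeptide GalNAc-transferases (GALNT), the core 1 enzyme C1GALT1 with its chaperone C1GALT1C1, and the branching GlcNAc-transferases of O-glycans (GCNT) and N-glycans (MGAT). The GlcNAc-transferases B3GNT, the galactosyltransferases B4GALT, the fucosyltransferases FUT and the sialyltransferases ST3GAL, ST6GAL and ST6GALNAC complete the set. Together they are 74 of the 57773 genes in the table. Their levels were compared between A549 cells exposed to recombinant human surfactant protein D (rhSP-D) at 10 µg/ml for 48 h and A549 cells given the same amount of the elution buffer alone, called vehicle here. Each group held 3 samples of poly(A) RNA. A549 is an established line from a human lung adenocarcinoma, grown here in medium with serum, and no other line or untreated group enters the comparison.

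Protein glycosylation follows 2 main routes. On N-glycans, a preassembled oligosaccharide is transferred to asparagine in the endoplasmic reticulum, trimmed, and rebuilt in the Golgi by MGAT branching enzymes. On mucin-type O-glycans, GALNT enzymes attach GalNAc to serine or threonine, and core enzymes, galactosyltransferases, fucosyltransferases and sialyltransferases then extend and end the chain. Airway epithelium carries dense O-glycans on its mucins, and surfactant protein D is a secreted lung lectin that binds sugars.

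Total counts were 18599955 to 26030880 in the rhSP-D libraries and 11396193 to 19803697 in the vehicle libraries, so that vehicle replicate 1 was the shallowest. The labels do not say whether the triplicates were separate cultures, so the p-values reflect the spread among these 6 samples, which may be technical. Levels are given as CPM, counts over the library size after TMM normalization, for rhSP-D replicates 1, 2 and 3 and vehicle replicates 1, 2 and 3 in that order. Genes that changed, rose or fell are those with an adjusted p under 0.05 in edgeR's quasi-likelihood test with Benjamini-Hochberg adjustment over all 15848 genes tested, and log2 changes are rhSP-D over vehicle. In whole-population RNA, fewer cells with a transcript and less of it per cell cannot be told apart. Whether strand was counted is not given in the sources used here, so reads from a gene and an overlapping gene on the opposite strand cannot be told apart, which touches 27 of the tested members. Exonic bases shared with a gene on the same strand, found in 9 tested members, carry the same limit. The markers of the line were those of epithelium, with keratins KRT7 at 3033 CPM in rhSP-D cells and 2721 CPM in vehicle cells and KRT18 at 4268 and 4125 CPM, whereas EPCAM and KRT19 were low, at 1.99 and 1.53 CPM in rhSP-D cells and 1.82 and 1.83 CPM in vehicle cells.

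Of the 74 members, 59 had enough counts to be tested, and 9 of these changed. ST6GALNAC2, MGAT4B, MGAT1, GCNT3, GALNT18, C1GALT1C1 and B4GALT2 rose, and GALNT7 and MGAT5B fell. The members that changed were 15.3% of those tested, close to the 15.9% called among all genes tested (9.31% higher and 6.63% lower). Counts of calls by class or list rest on few genes and are to be read beside that 15.9%. Groups did not overlap for 16 tested members, or 27.1%, against 31.5% of all genes tested. The median log2 change was 0.01 over the tested members, and -0.01 over all genes tested, with 32 members above 0 and 27 below. At an unadjusted p under 0.05 there were 13 members, or 22.0%, against 28.1% of all genes tested. ST6GALNAC2 stood apart by size: its log2 change was 0.88, while the other 8 changed members lay between 0.12 and 0.26 in either direction. Among the 1475 genes that rose in the whole table, 14 had a larger fold than ST6GALNAC2.

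**Figure D1:**
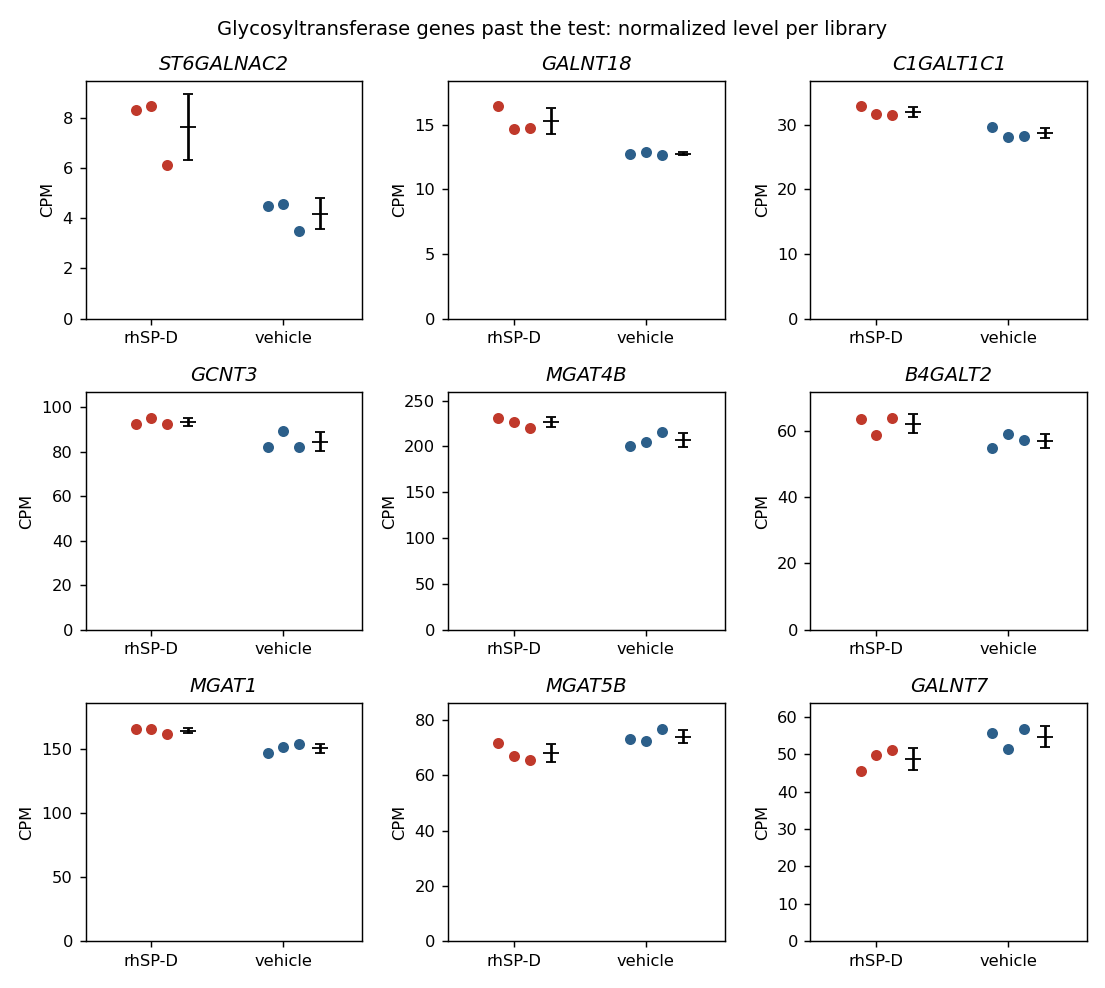
CPM of the 9 changed members in each library, rhSP-D left (red) and vehicle right (blue), with the mean and SD of the 3 libraries of a group beside the points and every axis starting at 0. ST6GALNAC2 at 6.12 to 8.45 CPM in rhSP-D cells and 3.48 to 4.57 CPM in vehicle cells has the widest gap, and B4GALT2 is the 1 member whose groups overlap.

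Sialyltransferases, which end the chains, held the largest change. ST6GALNAC2, which adds sialic acid to the innermost GalNAc of O-glycans, had 213, 155 and 122 counts in rhSP-D libraries and 52, 82 and 70 counts in vehicle libraries. These were 8.32, 8.45 and 6.12 CPM in rhSP-D cells and 4.50, 4.57 and 3.48 CPM in vehicle cells. Every rhSP-D library lay above every vehicle library, and replicate 3 was the lowest in both groups. The means were 7.63 ± 1.31 CPM in rhSP-D cells and 4.18 ± 0.611 CPM in vehicle cells (SD, n = 3 each), a log2 change of 0.88 ± 0.15 (SE) with an edgeR adjusted p of 0.000101. On the linear scale it rose by 84.4%, with a 95% interval of 48.9 to 128%. The gene lies on the minus strand of chromosome 17, at 76565379 to 76586956 in GRCh38 (GENCODE 29), and carries the identifier ENSG00000070731. It shares 578 exonic bases with AC015802.1 on the opposite strand, which was counted at 0.0167 and 0.0166 CPM in rhSP-D and vehicle cells. A further 1194 bases are shared with AC015802.6 on the same strand, a gene that is not in the count table. Any reads from it over those bases cannot be told apart from reads of ST6GALNAC2.

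The other 4 tested ST6GALNAC members did not pass. ST6GALNAC4, which sialylates the same GalNAc once the core 1 chain already carries a sialic acid, came nearest, at 19.1, 18.4 and 16.7 CPM in rhSP-D cells and 15.9, 15.4 and 16.2 CPM in vehicle cells. Its groups did not overlap, and its log2 change was 0.19 ± 0.08 with an adjusted p of 0.089. ST6GALNAC6, which acts on glycolipids as well, averaged 18.2 ± 0.277 CPM in rhSP-D cells and 17.9 ± 1.35 CPM in vehicle cells, a log2 change of 0.03 whose sign turned under 4 alternatives. ST6GALNAC1, the sialyl-Tn synthase, was at 1.16 and 1.34 CPM and ST6GALNAC3 at 0.711 and 0.688 CPM in rhSP-D and vehicle cells. By normalized counts, ST6GALNAC2 made up 17.5, 18.2 and 14.2% of the class in rhSP-D cells and 10.8, 11.6 and 8.93% in vehicle cells. The class as a whole summed to 45.7 ± 2.25 CPM in rhSP-D cells and 40.0 ± 1.46 CPM in vehicle cells.

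Sialyltransferases that cap galactose gave 0 calls in edgeR's test among 6 ST3GAL and 2 ST6GAL members, with 1 at an unadjusted p under 0.05, ST3GAL4, and 0 with limma-voom or with DESeq2, which gave 4 of the 8 no adjusted p. ST3GAL4, which sialylates terminal galactose of N- and O-glycans, was at 69.1, 70.6 and 64.8 CPM in rhSP-D cells and 59.6, 63.7 and 65.4 CPM in vehicle cells. The groups overlapped, through rhSP-D replicate 3 and vehicle replicate 3, and the adjusted p for a log2 change of 0.11 was 0.0824, or 0.0365 without rhSP-D replicate 3. ST3GAL1, which caps the core 1 disaccharide, averaged 49.4 ± 4.07 CPM in rhSP-D cells and 46.6 ± 1.96 CPM in vehicle cells (log2 change 0.08, adjusted p = 0.381). ST3GAL5, the synthase of the ganglioside GM3 on lipid, was at 43.0 and 41.9 CPM in rhSP-D and vehicle cells (log2 change 0.04, adjusted p = 0.632), and without vehicle replicate 3 its log2 change was -0.004. ST6GAL1 and ST6GAL2, which place sialic acid on galactose of N-glycans, were both low. ST6GAL1 had 6.48, 5.67 and 6.83 CPM in rhSP-D cells and 7.01, 7.08 and 7.66 CPM in vehicle cells, without overlap, and an adjusted p of 0.312. ST6GAL2 averaged 8.56 ± 0.934 CPM in rhSP-D cells and 9.38 ± 0.706 CPM in vehicle cells (log2 change -0.13, adjusted p = 0.486).

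The GALNT enzymes, which start mucin-type O-glycans, had 17 members, 14 of them tested, with 1 higher and 1 lower. GALNT18, a member of a divergent branch of the family, was at 16.4, 14.7 and 14.7 CPM in rhSP-D cells and 12.7, 12.9 and 12.7 CPM in vehicle cells, so that every rhSP-D library was above every vehicle library. Its log2 change was 0.26 ± 0.08 (+20.0%, interval 6.64 to 35.0%) with an adjusted p of 0.0285. GALNT7, a follow-up enzyme that prefers peptides already carrying GalNAc, was at 45.5, 49.7 and 51.2 CPM in rhSP-D cells and 55.8, 51.5 and 56.9 CPM in vehicle cells. The highest rhSP-D and the lowest vehicle library nearly met, and its log2 change was -0.17 ± 0.05, a fall of 11.1% (interval -17.1 to -4.65%), with an adjusted p of 0.0168. The calls ended under 9 alternatives for GALNT18 and 7 for GALNT7, and both depended on single libraries. That of GALNT18 ended without rhSP-D replicate 1 (adjusted p = 0.187) or any 1 vehicle replicate (0.0567, 0.0578 and 0.0909 without replicates 1, 2 and 3), and that of GALNT7 without rhSP-D replicate 1 (0.17), vehicle replicate 1 (0.062) or vehicle replicate 3 (0.148). Once gene length and GC content were corrected for, the log2 changes were 0.22 for GALNT18 (adjusted p = 0.0924) and -0.08 for GALNT7 (adjusted p = 0.318).

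The abundant GALNT members moved little. GALNT2, a broadly acting initiating enzyme, averaged 345 ± 8.34 CPM in rhSP-D cells and 338 ± 4.30 CPM in vehicle cells, with overlap (log2 change 0.03, adjusted p = 0.344; -0.008 with library totals in place of TMM factors). GALNT1, a further broadly acting enzyme, was at 162, 170.0 and 171 CPM in rhSP-D cells and 175, 174 and 177 CPM in vehicle cells. GALNT10, which like GALNT7 prefers glycopeptides, was at 214, 215 and 211 CPM in rhSP-D cells and 218, 222 and 224 CPM in vehicle cells. In both, every rhSP-D library was below every vehicle library, with log2 changes of -0.07 (adjusted p = 0.0821) and -0.05 (adjusted p = 0.116), and both passed with library totals alone (0.00446 and 0.00429). GALNT4, which also acts on partly glycosylated peptides, averaged 22.1 ± 3.15 CPM in rhSP-D cells and 25.2 ± 2.82 CPM in vehicle cells (log2 change -0.21, adjusted p = 0.233, or 0.00762 without rhSP-D replicate 2). Its exons share 5033 bases with the read-through gene POC1B-GALNT4, so counts could be split between them. The class summed to 906 ± 18.3 CPM in rhSP-D cells and 921 ± 6.61 CPM in vehicle cells.

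The next step of O-glycans is the core. C1GALT1 adds galactose to GalNAc to make core 1, and C1GALT1C1, also known as Cosmc, is the endoplasmic reticulum chaperone that C1GALT1 needs to fold. C1GALT1C1 was at 32.8, 31.7 and 31.5 CPM in rhSP-D cells and 29.6, 28.2 and 28.3 CPM in vehicle cells, without overlap. It rose by 12.2% (interval 3.96 to 21.1%; log2 change 0.17 ± 0.05, adjusted p = 0.0323). This call ended under 10 of the 16 alternatives, with adjusted p up to 0.408 after thinning. They included leaving out any 1 library other than vehicle replicate 1: adjusted p was 0.149, 0.0589 and 0.0528 without rhSP-D replicates 1, 2 and 3, and 0.0991 and 0.123 without vehicle replicates 2 and 3. The enzyme C1GALT1 itself was at 31.5, 33.3 and 31.3 CPM in rhSP-D cells and 34.4, 32.7 and 32.5 CPM in vehicle cells. Its groups overlapped, and its log2 change of -0.05 did not pass (adjusted p = 0.604).

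Core 2 and core 4 branches are made by GCNT enzymes. GCNT3, the mucin-type enzyme that can make both, was at 92.5, 95.3 and 92.3 CPM in rhSP-D cells and 82.0, 89.5 and 81.9 CPM in vehicle cells. The groups did not overlap, vehicle replicate 2 lying nearest to the rhSP-D libraries, and the level rose by 10.2% (interval 4.66 to 16.1%; log2 change 0.14 ± 0.04, adjusted p = 0.00749). The call ended without vehicle replicate 3 (adjusted p = 0.0863), with library totals alone (0.0556) and after thinning to the shallowest library (0.119). GCNT1, the widely expressed core 2 enzyme, and GCNT2, the I-branching enzyme, averaged 7.53 and 17.1 CPM in rhSP-D cells and 6.99 and 18.2 CPM in vehicle cells and did not pass. GCNT4, GCNT6 and GCNT7 were too low to be tested, at no more than 0.408 CPM in either group. The core 3 enzyme B3GNT6 had 0 counts in all 6 libraries, which allows up to 0.117 to 0.164 CPM in rhSP-D libraries and 0.149 to 0.260 CPM in vehicle libraries at 3 counts.

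Proximal sequence is shown for 1 member that fell and 1 that rose, as 150 bases that end 101 bases before the RefSeq start (GRCh38.p14) and lie in no GENCODE 29 exon. The window of GALNT7 is chr4:173168561-173168710 on the plus strand and that of C1GALT1C1 is chrX:120630155-120630304 on the minus strand. Capitals mark matches to the GC box (GGGCGG) and the metal response element core (TGCGCNC), searched on both strands beside the STAT6 palindrome (TTCNNNNGAA).
GALNT7: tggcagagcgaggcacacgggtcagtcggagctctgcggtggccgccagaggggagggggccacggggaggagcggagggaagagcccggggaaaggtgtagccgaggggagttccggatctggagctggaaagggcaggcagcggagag
C1GALT1C1: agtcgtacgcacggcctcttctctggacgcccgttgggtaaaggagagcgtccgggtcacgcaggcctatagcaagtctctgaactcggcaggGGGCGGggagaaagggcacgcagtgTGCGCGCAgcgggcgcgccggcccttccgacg
The window of GALNT7 held no match to any of the 3 motifs, and that of C1GALT1C1 held 1 GC box and 2 overlapping matches to the metal response core on opposite strands. The GC box letters occur in 25.8% of the 35116 RefSeq windows of this length, the metal response core in 9.16% and the STAT6 palindrome in 3.43%. These are letter matches only. Both windows were rich in G and C, at 70% for GALNT7 and 68% for C1GALT1C1. The window of MGAT5B, which also fell, held no match to the 3 motifs, at 51.3% G and C, and is not shown. Of the 74 members, 53 had a RefSeq promoter entry, among them 7 that changed. Windows of the remaining changed members are not given, so no pattern can be read from these.

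The MGAT class of branching enzymes held 3 calls among 7 tested members. MGAT1, which adds the GlcNAc that opens hybrid and complex N-glycans, was at 166, 166 and 162 CPM in rhSP-D cells and 147, 152 and 154 CPM in vehicle cells. MGAT4B, which adds a branch on the arm that MGAT1 began, was at 231, 227 and 220.4 CPM in rhSP-D cells and 200.4, 205 and 215 CPM in vehicle cells. For both genes all rhSP-D libraries were above all vehicle libraries. MGAT1 rose by 8.86% (interval 4.77 to 13.1%; log2 change 0.12 ± 0.03, adjusted p = 0.00176) and MGAT4B by 9.03% (interval 4.93 to 13.3%; log2 change 0.12 ± 0.03, adjusted p = 0.0015). Both calls held with each library left out in turn and were lost only when all libraries were thinned to the shallowest (adjusted p = 0.129 for MGAT1 and 0.0699 for MGAT4B). The pair lies 0.978 Mb apart on the minus strand of chromosome 5, MGAT4B at 179797597 to 179806952 and MGAT1 at 180784782 to 180815652. MGAT4B shares 105 exonic bases with SQSTM1 on the opposite strand, at 1122 and 1090 CPM in rhSP-D and vehicle cells (log2 change 0.04, adjusted p = 0.086).

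MGAT5B, an enzyme known for branching O-mannosyl glycans in brain, was at 71.9, 67.0 and 65.6 CPM in rhSP-D cells and 73.0, 72.3 and 76.9 CPM in vehicle cells. The groups came close without overlapping, at rhSP-D replicate 1 and vehicle replicate 2, and the level fell by 7.90% (interval -13.1 to -2.44%; log2 change -0.12 ± 0.04, adjusted p = 0.044). This call ended with DESeq2 (adjusted p = 0.117), after thinning (0.108), and without rhSP-D replicate 2 (0.127), rhSP-D replicate 3 (0.182), vehicle replicate 1 (0.0605) or vehicle replicate 3 (0.27). MGAT2, which acts after MGAT1 on the other arm, averaged 38.7 ± 1.52 CPM in rhSP-D cells and 41.2 ± 3.02 CPM in vehicle cells (log2 change -0.09, adjusted p = 0.307). Of its 2687 exonic bases 2469 are shared with AL139099.1 on the opposite strand. MGAT5, the N-glycan branching enzyme, was at 17.2 and 17.7 CPM and MGAT4A at 2.50 and 2.58 CPM in rhSP-D and vehicle cells, and neither passed. MGAT3, the bisecting enzyme, was at 1.22 and 1.08 CPM.

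**Figure D2:**
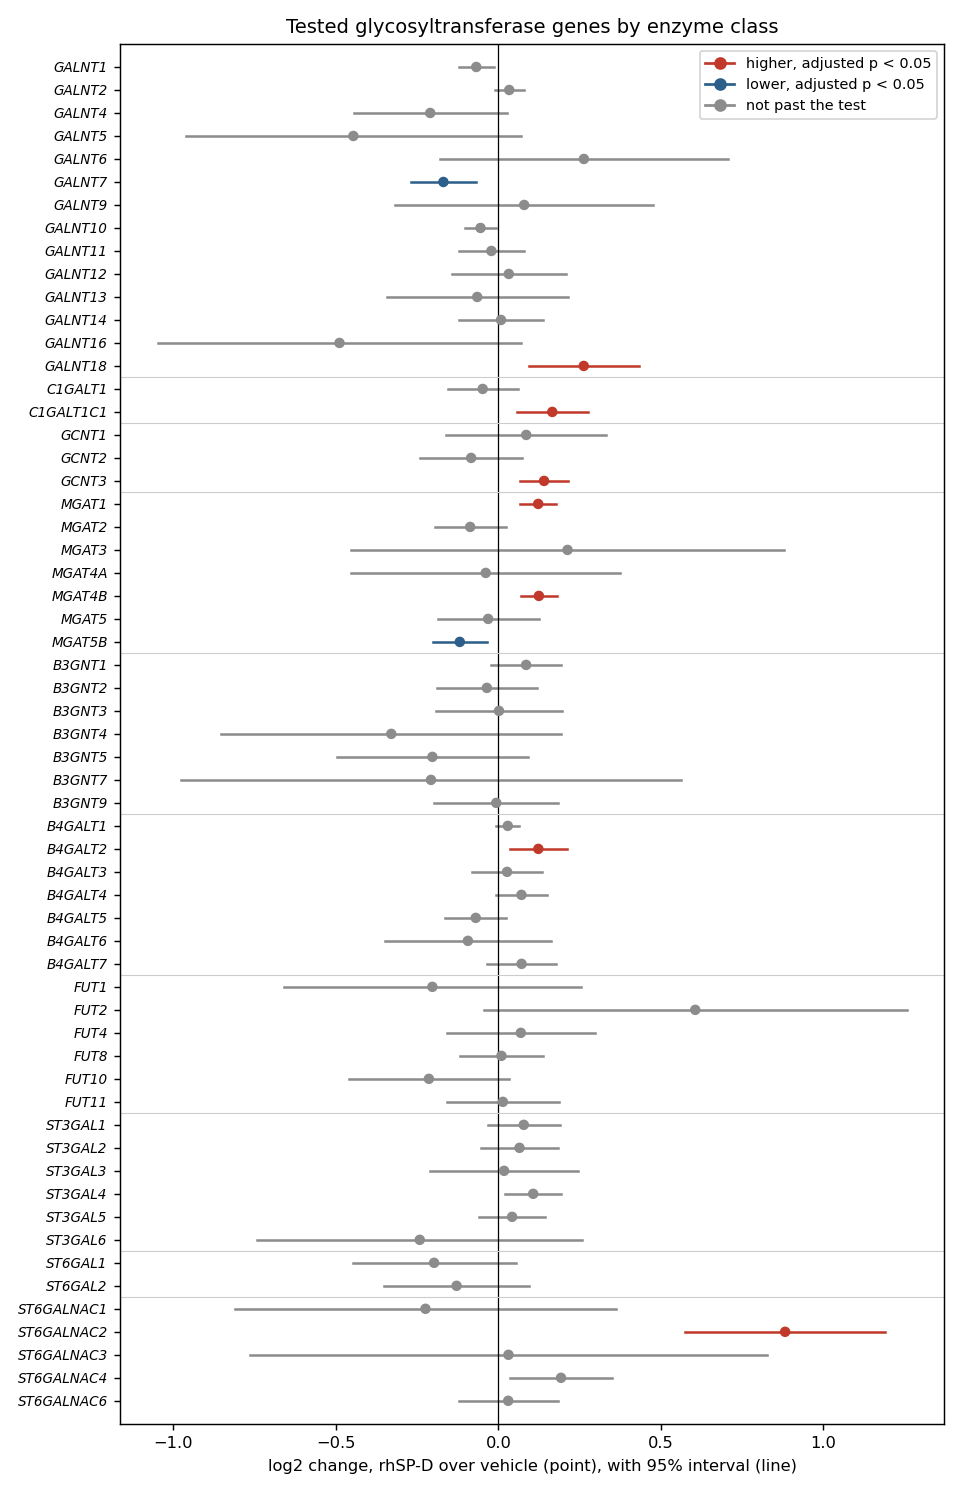
Log2 change, rhSP-D over vehicle, of the 59 tested members ordered by enzyme class, as a point with its 95% interval; red members rose, blue fell and grey did not pass. The intervals of abundant genes such as GALNT2 and B4GALT1 are narrow and near 0, and those of members under 3 CPM are wide.

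Chain extension by B3GNT and B4GALT enzymes gave 1 call. B4GALT2, a galactosyltransferase of N-glycans, was at 63.5, 58.7 and 63.9 CPM in rhSP-D cells and 54.8, 58.9 and 57.0 CPM in vehicle cells. It was the 1 changed member whose groups overlapped, rhSP-D replicate 2 lying below vehicle replicate 2, and it rose by 8.90% (interval 2.47 to 15.7%; log2 change 0.12 ± 0.04, adjusted p = 0.0485). Its call ended under 10 of the 16 alternatives, among them leaving out rhSP-D replicate 1 (adjusted p = 0.2), rhSP-D replicate 3 (0.175), vehicle replicate 1 (0.147) or vehicle replicate 3 (0.133). With the length and GC correction its log2 change was 0.07 (adjusted p = 0.372), and with library totals 0.08 (0.2). B4GALT1, the main galactosyltransferase of many cells, was at 681, 693 and 682 CPM in rhSP-D cells and 671, 672 and 671 CPM in vehicle cells. The groups did not overlap, but a difference of 2.03% (interval -0.446 to 4.56%; adjusted p = 0.291) did not pass, and its log2 change was -0.012 with library totals. B4GALT4 averaged 68.6 ± 1.96 CPM in rhSP-D cells and 65.1 ± 0.677 CPM in vehicle cells, again without overlap (log2 change 0.07, adjusted p = 0.228; 0.00476 with the length and GC correction). B4GALT5 and B4GALT6, which act on glucosylceramide, were at 79.2 and 7.31 CPM in rhSP-D cells and 83.4 and 7.76 CPM in vehicle cells.

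Of the 7 tested B3GNT members 0 passed edgeR's test, 0 had an unadjusted p under 0.05, and 0 passed with limma-voom or with DESeq2, which gave 6 of them no adjusted p. The most abundant, listed as B3GNT1 but named B4GAT1 in GENCODE 29, adds glucuronic acid to the sugar chain of dystroglycan. It averaged 40.5 ± 2.64 CPM in rhSP-D cells and 38.6 ± 1.62 CPM in vehicle cells (log2 change 0.09, adjusted p = 0.312). B3GNT2, which extends polylactosamine, was at 18.2 and 18.6 CPM in rhSP-D and vehicle cells.

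Fucosyltransferases gave 0 calls in edgeR's test among 6 tested of 11, with 0 at an unadjusted p under 0.05 and 0 with limma-voom or with DESeq2, which gave 5 of the 6 no adjusted p. FUT8, which adds the core fucose of N-glycans, was at 24.2, 25.1 and 23.2 CPM in rhSP-D cells and 23.1, 24.0 and 24.7 CPM in vehicle cells. The groups overlapped throughout, with a difference of 0.652% (interval -7.84 to 9.93%). Its log2 change of 0.01 changed sign without rhSP-D replicate 2 (-0.017) and without vehicle replicate 1 (-0.009). FUT2, the secretor enzyme, had only 1.29, 0.982 and 1.20 CPM in rhSP-D cells and 0.692, 0.836 and 0.746 CPM in vehicle cells. Its groups did not overlap, yet a log2 change of 0.61 ± 0.32 did not pass (adjusted p = 0.218), and its interval ran from -3.12 to 139%. FUT10 averaged 6.65 ± 0.746 CPM in rhSP-D cells and 7.79 ± 0.390 CPM in vehicle cells, without overlap (adjusted p = 0.254). FUT3, FUT5, FUT6, FUT7 and FUT9, among the enzymes that make Lewis-type epitopes, were all below the limit for testing. FUT4, a further enzyme of that kind, was tested and did not pass. It averaged 8.01 CPM in rhSP-D cells and 7.61 CPM in vehicle cells (edgeR adjusted p = 0.745). FUT9 had 0 counts in every library.

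Precision followed abundance. The 6 tested members at 100 CPM or more in vehicle cells had SEs of 0.017 to 0.027 on the log2 scale, whereas the 13 tested members under 3 CPM had SEs of 0.19 to 0.39 and gave 0 calls in edgeR's test, 0 at an unadjusted p under 0.05 and 0 with limma-voom. DESeq2 gave none of those 13 an adjusted p. Of the 13 members at 50 CPM or more in vehicle cells, 7 did not pass, with log2 changes no larger than 0.11 and 95% intervals within -10.7 to 14.3%. The 15 untested members were GALNT3, GALNT8, GALNT15, GCNT4, GCNT6, GCNT7, MGAT4C, B3GNT6, B3GNT8, FUT3, FUT5, FUT6, FUT7, FUT9 and ST6GALNAC5. Just below the limit lay GALNT3, at 0.485 and 0.465 CPM, GCNT4 at 0.408 and 0.236 CPM and FUT3 at 0.287 and 0.363 CPM in rhSP-D and vehicle cells. Just above it lay B3GNT7, at 0.674 and 0.765 CPM, and ST6GALNAC3.

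Levels of different members were compared as CPM per kb of merged exons. B4GALT1 was the highest at 139.8 in rhSP-D cells and 137 in vehicle cells, followed by GALNT2 (44.6 and 43.6), MGAT4B (41.1 and 37.7), GALNT1 (32.7 and 34.2), GALNT10 (20.3 and 21.1) and B3GNT1 (19.5 and 18.6). The first 6 places were the same in both groups. Just behind them C1GALT1C1, at 17.9 and 16.1 CPM per kb in rhSP-D and vehicle cells, and B4GALT5, at 16.8 and 17.7 CPM per kb, exchanged the 7th and 8th places. ST6GALNAC2, at 2.46 and 1.35 CPM per kb, took place 35 in rhSP-D cells and place 39 in vehicle cells. Merged exons of all transcripts overstate the length of the RNA present in genes with many isoforms, such as MGAT1 with 11576 bases.

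**Figure D3:**
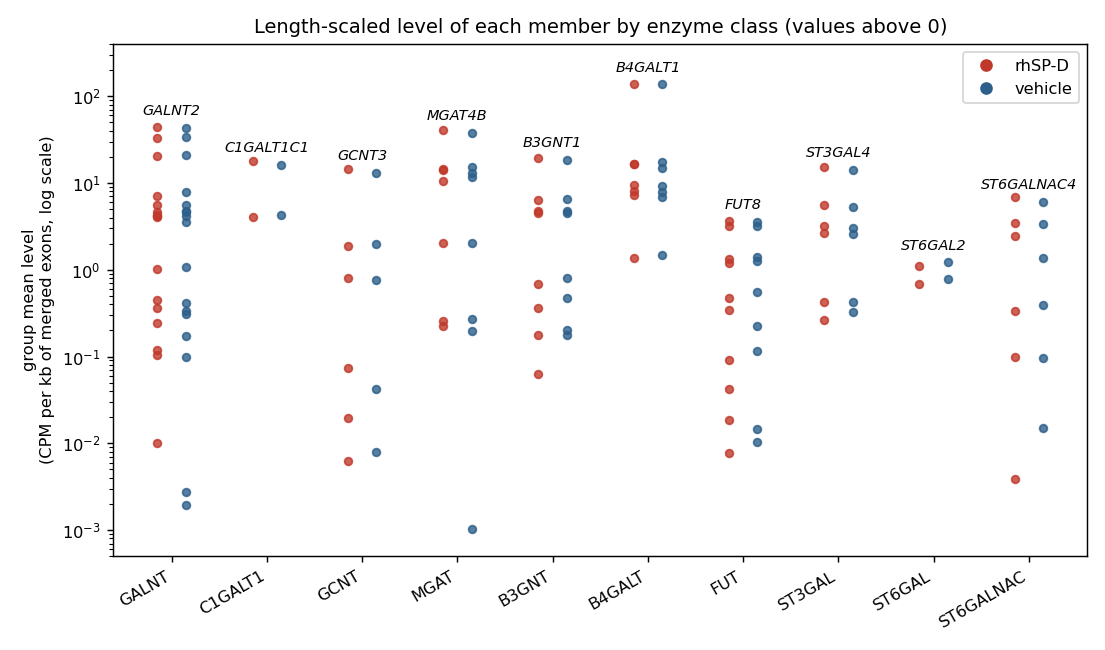
Group mean level of each member in CPM per kb of merged exons, on a log axis, by enzyme class, with rhSP-D (red) left of vehicle (blue) and the highest member of each class named; members at 0 are not drawn. B4GALT1 leads at 139.8 in rhSP-D cells and 137 in vehicle cells, and every class but ST6GAL has a member above 3 CPM per kb in both groups.

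Summed over all members of a class, the levels of 5 of the 10 classes did not overlap between groups under TMM scaling. Among single genes, the groups did not overlap for 31.5% of all those tested. No such share was computed for sums of other genes, so the count of classes has no background of its own. The ST6GALNAC sum was 47.6, 46.4 and 43.2 CPM in rhSP-D cells and 41.7, 39.4 and 39.0 CPM in vehicle cells, 14.2% higher in rhSP-D cells. The ST6GAL sum was 15.6, 14.7 and 14.3 CPM in rhSP-D cells and 16.6, 15.7 and 17.6 CPM in vehicle cells, 10.5% lower in rhSP-D cells and close at vehicle replicate 2. With DESeq2's size factors all 5 of the classes kept separate groups, and with library totals alone only ST6GALNAC and ST6GAL among them did. The GCNT sum (118 ± 2.08 CPM in rhSP-D cells and 109.9 ± 5.27 CPM in vehicle cells) and the ST3GAL sum (202 ± 3.65 CPM in rhSP-D cells and 192 ± 4.52 CPM in vehicle cells) were separate under TMM, and overlapped with library totals. The B4GALT sum, 969.7 ± 8.37 CPM in rhSP-D cells and 949.7 ± 2.29 CPM in vehicle cells, was 2.1% higher with TMM and 0.749% lower with library totals. The MGAT sum was 519 ± 10.7 CPM in rhSP-D cells and 495 ± 13.6 CPM in vehicle cells, with overlap. The GALNT sum overlapped under TMM (-1.69% in rhSP-D cells against vehicle cells). With library totals its groups were separate, and every rhSP-D library lay below every vehicle library (-4.44%). The level of a class sum is led by its most abundant genes, but its shift need not be, and sums were not tested. The ST6GALNAC shift came mostly from ST6GALNAC2, at 7.63 CPM in rhSP-D cells and 4.18 CPM in vehicle cells. Most of the remainder came from ST6GALNAC4, which did not pass (18.05 CPM in rhSP-D cells and 15.82 CPM in vehicle cells). ST6GALNAC6, the most abundant of the class by CPM, was at 18.16 CPM in rhSP-D cells and 17.94 CPM in vehicle cells. Per kb of merged exons ST6GALNAC4 was higher, at 6.86 and 6.02 CPM per kb in rhSP-D and vehicle cells, against 3.42 and 3.38 for ST6GALNAC6.

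**Figure D4:**
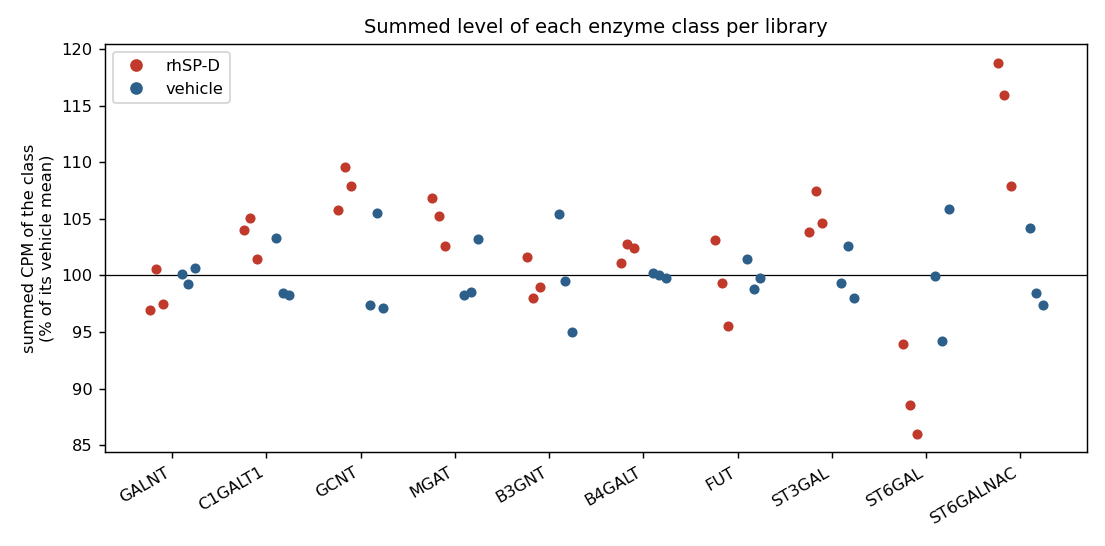
Summed CPM of each enzyme class in each library, as a percent of the vehicle mean of that class, with rhSP-D (red) left of vehicle (blue); the axis does not start at 0. ST6GALNAC lies highest in rhSP-D cells (14.2% above the vehicle mean on average) and ST6GAL lowest (10.5% below).

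The direction of small changes depended on scaling, which moved the whole table. With library totals in place of TMM factors the median log2 change of all genes tested was -0.05, and 3 members rose and 4 fell, against 7 and 2 with TMM. Over all genes, 58.4% of calls were higher with TMM, 30.4% with library totals and 74.8% with the length and GC correction, which gave 7 higher and 1 lower member. Across the tested members, GC content and log2 change had a Spearman rho of 0.31, and 0.30 across 15347 genes. For exonic length, rho was -0.15 across the tested members and -0.30 across all genes. Transcript GC was 40.6 to 60.8% in the 7 members that rose, 38.8% in GALNT7 and 64.7% in MGAT5B. The part of GC content and length in the smaller changes was not tested beyond that correction.

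The rest of the pathway was read from 10 lists of other glycosylation genes, chosen with earlier results of these data known. Of 129 tested genes 23 changed, 13 higher and 10 lower, or 17.8%, against 15.9% of all genes. The oligosaccharyltransferase, which transfers the N-glycan precursor to protein, held 5 higher and 2 lower of 12 (median log2 change 0.05). Its small subunits DAD1 (166 ± 2.36 CPM in rhSP-D cells and 148 ± 7.74 CPM in vehicle cells, log2 change 0.17, adjusted p = 0.000263) and KRTCAP2 (114 ± 2.72 CPM in rhSP-D cells and 101 ± 3.02 CPM in vehicle cells, log2 change 0.17, adjusted p = 0.000365) rose. Of its alternative catalytic subunits, STT3B fell (200.2 ± 4.66 CPM in rhSP-D cells and 220.1 ± 5.78 CPM in vehicle cells, log2 change -0.14, adjusted p = 0.000329). STT3A, at 148 ± 5.02 CPM in rhSP-D cells and 156 ± 1.62 CPM in vehicle cells without overlap, did not pass (log2 change -0.08, adjusted p = 0.0728). With the length and GC correction DAD1 and STT3B no longer passed (log2 changes 0.09 and -0.07, adjusted p = 0.148 and 0.0584), while KRTCAP2 passed under every alternative run. TMEM258, OSTC and DDOST rose too and MAGT1 fell, with smaller log2 changes (0.14, 0.12, 0.07 and -0.11; adjusted p = 0.00812, 0.0127, 0.025 and 0.0277). Calls ended without rhSP-D replicate 3 for OSTC (0.104), DDOST (0.0982) and MAGT1 (0.14), without vehicle replicate 3 for OSTC (0.0549) and DDOST (0.138), without rhSP-D replicate 1 for DDOST (0.0581), and without vehicle replicates 1 and 2 for MAGT1 (0.108 and 0.0533). With library totals TMEM258 (0.0591), OSTC (0.102) and DDOST (log2 change 0.03, adjusted p = 0.375) did not pass, and with the length and GC correction DDOST was at 0.03 (0.555) and MAGT1 at -0.05 (0.481).

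Supply of sugar donors held 4 calls among 26 tested genes of nucleotide sugar synthesis (median log2 change 0.03). Of all genes tested, 15.9% were called. NANS, the synthase of the sialic acid precursor, was at 77.8, 76.1 and 76.5 CPM in rhSP-D cells and 66.4, 68.1 and 67.7 CPM in vehicle cells. Its groups did not overlap, and it rose by 13.9% (interval 8.22 to 19.9%; log2 change 0.19, adjusted p = 0.000402), a call held under every alternative run. PMM1, a phosphomannomutase, rose likewise, at 41.6 ± 0.920 CPM in rhSP-D cells and 36.5 ± 1.38 CPM in vehicle cells (log2 change 0.18, adjusted p = 0.0105; held under every alternative run). PGM3, which makes GlcNAc phosphate for UDP-GlcNAc, fell, at 35.0 ± 0.900 CPM in rhSP-D cells and 40.0 ± 1.43 CPM in vehicle cells (log2 change -0.19, adjusted p = 0.00632, or 0.0601 without vehicle replicate 3, and -0.10 and 0.21 with the length and GC correction). TSTA3, which makes GDP-fucose, rose by 6.95% (adjusted p = 0.0276), a call lost under 8 alternatives, among them leaving out rhSP-D replicate 1, 2 or 3 (0.0951, 0.061 and 0.0668) or vehicle replicate 3 (0.138). Its log2 change of 0.10 was 0.06 with library totals (adjusted p = 0.224) and 0.04 with the length and GC correction (0.502). Of 10 Golgi nucleotide sugar transporters 1 fell, SLC35B4, at 54.8 ± 1.14 CPM in rhSP-D cells and 61.4 ± 4.21 CPM in vehicle cells (adjusted p = 0.0152). That call ended under 7 of the 16 alternatives, among them leaving out rhSP-D replicate 1 or 2 (0.065 and 0.057) or vehicle replicate 1 or 3 (0.0886 and 0.101), and its log2 change of -0.16 was -0.08 with the length and GC correction (0.301).

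Among 19 genes of lipid-linked oligosaccharide assembly 2 rose, DPM3 and DPM2, each a subunit of dolichol-phosphate-mannose synthase (median log2 change of the list -0.001). The subunit DPM1 averaged 40.9 ± 1.63 CPM in rhSP-D cells and 38.2 ± 1.86 CPM in vehicle cells. It did not pass (log2 change 0.10, edgeR adjusted p = 0.209). DPM3, which anchors that synthase, was at 40.5, 40.2 and 38.4 CPM in rhSP-D cells and 32.1, 31.9 and 33.2 CPM in vehicle cells (log2 change 0.29, adjusted p = 0.000103, or 0.14 and 0.0809 with the length and GC correction). DPM2 rose by 11.6% (adjusted p = 0.0395), a call that ended under 11 alternatives, among them any 1 library left out (0.0559, 0.0835 and 0.148 without rhSP-D replicates 1, 2 and 3, and 0.0905, 0.0764 and 0.0999 without vehicle replicates 1, 2 and 3). Of 12 trimming enzymes, MAN2A1, the Golgi mannosidase that follows MGAT1, fell, at 32.4 ± 0.308 CPM in rhSP-D cells and 37.6 ± 1.07 CPM in vehicle cells. Its log2 change was -0.22 (adjusted p = 0.00217, or -0.12 and 0.159 with the length and GC correction). PRKCSH, the beta subunit of glucosidase II, rose by 5.75% (adjusted p = 0.0131), a call lost under 6 alternatives. Its log2 change of 0.08 was 0.04 with library totals (adjusted p = 0.235) and 0.05 with the length and GC correction (0.222), and it did not pass without rhSP-D replicate 1 (0.0893) or vehicle replicate 1 (0.0955). Of 23 other glycosyltransferases 2 fell, OGT and the polysialyltransferase ST8SIA4. OGT, which attaches single GlcNAc to nuclear and cytosolic proteins, was at 214, 216 and 210.4 CPM in rhSP-D cells and 233 CPM in each vehicle library (log2 change -0.13, adjusted p = 0.000262, or -0.03 and 0.521 with the length and GC correction).

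**Figure D5:**
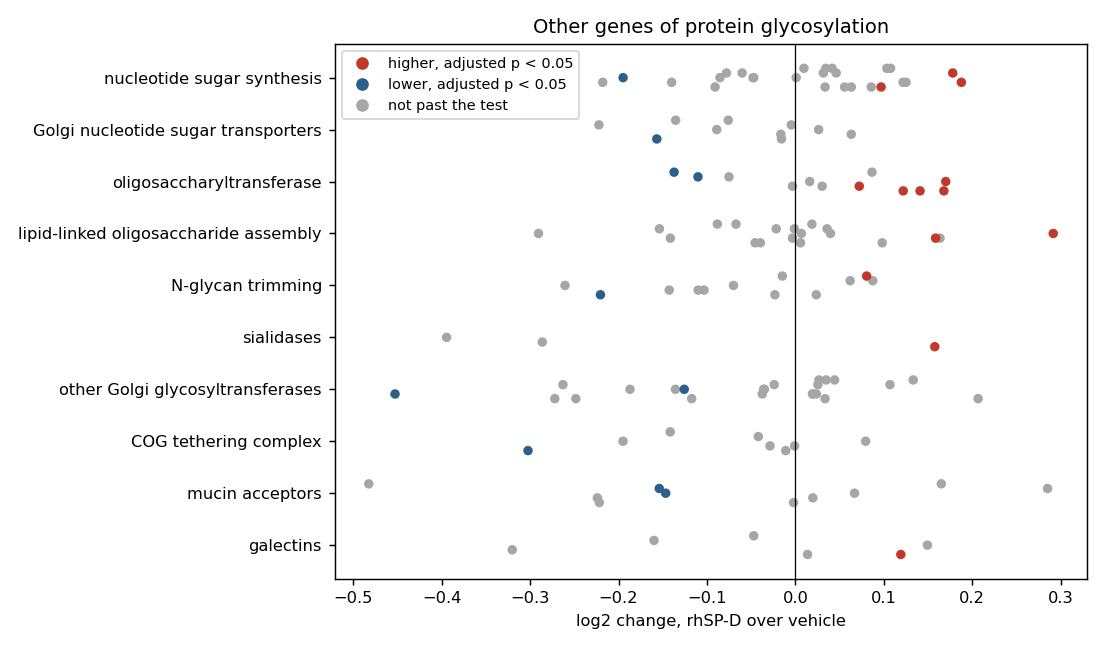
Log2 change, rhSP-D over vehicle, of each tested gene of the 10 other glycosylation lists, 1 row a list; red genes rose, blue fell and grey did not pass. The oligosaccharyltransferase row holds the most calls, 5 higher and 2 lower of 12.

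Most markers of other cell types were barely detected. Among immune markers PTPRC, the pan-leukocyte gene, was at no more than 0.0497 CPM in any library. The list summed to 93.0 to 98.4 CPM in rhSP-D cells and 84.7 to 90.6 CPM in vehicle cells. Nearly all of it was the lysosomal gene CD68, which rose (92.4 CPM in rhSP-D cells and 84.4 CPM in vehicle cells, adjusted p = 0.0161). Most of the remainder was CD14, which was tested and did not pass (edgeR adjusted p = 0.725). Fibroblast and endothelial markers summed to 13.2 to 14.2 CPM in rhSP-D cells and 10.5 to 14.7 CPM in vehicle cells. Most of this was COL1A1, at 12.21 CPM in rhSP-D cells and 11.46 CPM in vehicle cells, while DCN was at 0 in all libraries. Of the 2 tested, COL1A1 and LUM, 0 passed edgeR's test, 0 had an unadjusted p under 0.05 and 0 passed with limma-voom. The epithelial list summed to 12510 to 12743 CPM in rhSP-D cells and 11997 to 12124 CPM in vehicle cells, with KRT7 and KRT18 higher of 6 tested. The part of these shifts in the glycosyltransferase changes was not tested.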

How the data were processed

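Poly(A) RNA of 6 A549 samples was sequenced paired-end from NEBNext Ultra libraries, per the labels' protocols. The submitters' processing notes name cutadapt, STAR 2.7.0a, featureCounts 2.0.0 and GRCh38 (hg38); the annotation release, strand setting and treatment of reads with several matches were not given in the sources used here. What the authors deposited are raw whole-number counts for each gene, and every sample column was used. Samples were grouped by their titles and treatment labels.

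In R 4.3.3, edgeR 4.0.16 kept genes by filterByExpr (minimum count 10, minimum total 15), scaled libraries by TMM and tested rhSP-D against vehicle with a robust quasi-likelihood fit, 2-sided, over 15848 genes. The SE comes from the test statistic and CPM from the TMM-normalized library size. Intervals (95%) cover the fitted spread, whose biological coefficient of variation was 2.51%, and floors of 3 counts cover counting error only. Chi-square per degree of freedom was 1.88 to 2.13 between libraries of a group and 3.79 to 6.20 between groups, so none copied another. Merged exon length, coordinates and overlaps come from GENCODE 29 (GRCh38), which held all 74 members, and promoters from RefSeq.

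The members, the classes and the gene lists were chosen with earlier results of these data known, and no test over a list was made. Named genes were, by rule, members with an adjusted p under 0.05, the most abundant tested member of each class, C1GALT1 and C1GALT1C1, members just above and below the filter, and the 3 changed genes with the smallest p of each list. Further members whose groups did not overlap or that lead their class otherwise were named after their values were seen. The fit was also run on counts simulated from the mean levels and fitted dispersions of these data, which cannot show whether the model suits them. The 16 alternatives were DESeq2's size factors, library totals, no filter, a filter of 1 CPM in 3 samples, DESeq2 1.42.0, limma-voom (limma 3.58.1), a replicate block, a length and GC correction (natural splines, 5 degrees of freedom), both together, thinning to 11396193 counts, and each library left out in turn.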

Additional observations from a re-analysis of the deposited data

How the results depend on the processing

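ST6GALNAC2 kept its direction and its call under all 15 alternatives that gave it an adjusted p (log2 change 0.75 to 1.01, adjusted p up to 0.00352). The 9 changed members became 3 with DESeq2, which gave no adjusted p for 33 of the 59 tested members, 2 after thinning, and 3 to 8 with 1 library left out, the lowest count being that without vehicle replicate 3. Without rhSP-D replicate 1 or vehicle replicate 1 the count was 5. The 6 classes with a changed member became 3 with library totals, 2 with DESeq2, 2 after thinning and 2 to 5 with 1 library left out. Over all genes 2526 changed, against 1534 with DESeq2, 1503 with the replicate block and length and GC correction together, 1523 after thinning and 1678 to 2182 with 1 library left out. The 23 changed genes of the other lists became 10 with the block and correction together, 12 with the correction alone, 13 after thinning and 15 to 23 with 1 library left out. Limma-voom gave 8 members, no filter 10, and a filter of 1 CPM and DESeq2's size factors 9 each.

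Same-numbered replicates did not deviate together (correlations -0.08 to 0.03), so the numbers were not taken as pairs. With the replicate block 6 members changed, 4 higher and 2 lower, and B4GALT2 (adjusted p = 0.0672), C1GALT1C1 (0.0523) and GALNT18 (0.0536) no longer passed; 2319 genes passed in all.

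Alternatives were run for members whose log2 change is given in the text and for the changed genes of the other lists, and among these LGALS1 and 7 members changed sign; further members near 0 were not followed. With library totals the log2 change was -0.008 for GALNT2, -0.012 for B4GALT1, -0.032 for FUT8 and -0.011 for ST6GALNAC6. With the length and GC correction it was 0.041 for C1GALT1, -0.001 for ST6GALNAC6 and -0.008 for LGALS1, and with the block added 0.038, -0.008 and -0.006, with B3GNT1 at -0.014. After thinning C1GALT1 was at 0.082. With 1 library left out FUT8 ran from -0.017 (rhSP-D replicate 2; -0.009 without vehicle replicate 1) to 0.035, ST6GALNAC6 was at -0.007 without vehicle replicate 2, and ST3GAL5 ran from -0.004 (vehicle replicate 3) to 0.067. The causes were not tested. Among members under 3 CPM, changes of 0.12 to 0.26 on the log2 scale, the sizes of the 8 smaller calls, lie within or below the range of their SEs (0.19 to 0.39).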

Other observations

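Proteins that read or remove the sugars of these chains gave a few further calls. LGALS1, the lectin galectin-1, was at 326, 318 and 328 CPM in rhSP-D cells and 287, 311 and 294 CPM in vehicle cells, without overlap, and rose by 8.62% (log2 change 0.12, edgeR adjusted p = 0.000907), the 1 galectin of 6 tested that changed. With the length and GC correction its log2 change was -0.008. LGALS3, 10.9% higher in rhSP-D cells without overlap, did not pass (edgeR adjusted p = 0.0583). NEU1, the lysosomal sialidase, was at 37.6, 35.8 and 37.6 CPM in rhSP-D cells and 31.4, 35.2 and 32.6 CPM in vehicle cells (log2 change 0.16, adjusted p = 0.0391). Its call ended under 9 of 16 alternatives, among them leaving out rhSP-D replicate 1 or 3 (0.149 and 0.113) or vehicle replicate 1 or 3 (0.13 and 0.16). COG6, of the Golgi tethering complex that keeps glycosyltransferases in place, was at 11.1, 12.2 and 12.7 CPM in rhSP-D cells and 14.7, 13.6 and 15.9 CPM in vehicle cells, the 1 of 8 COG genes that changed (log2 change -0.30, adjusted p = 0.018, or 0.133 without rhSP-D replicate 1, 0.152 without vehicle replicate 3, and 0.136 with the length and GC correction). COG3 (log2 change -0.19, edgeR adjusted p = 0.05001) and COG5 (-0.14, 0.0961) were lower in rhSP-D cells too, without overlap, and did not pass. ST8SIA4, a polysialyltransferase, was at 4.61, 3.82 and 4.97 CPM in rhSP-D cells and 6.58, 4.80 and 7.06 CPM in vehicle cells, with overlap (log2 change -0.45, adjusted p = 0.0464). That call ended under 8 alternatives, among them leaving out rhSP-D replicate 1 or 2 (0.107 and 0.172) or vehicle replicate 1 or 3 (0.124 and 0.295). Of 10 tested mucins, which carry O-glycans, 2 fell and the other 8 did not pass. MUC5AC was at 550.0 ± 9.90 CPM in rhSP-D cells and 609 ± 15.9 CPM in vehicle cells (log2 change -0.15, adjusted p = 5.22e-06), and MUC5B at 4558 ± 158 CPM in rhSP-D cells and 5071 ± 44.1 CPM in vehicle cells (log2 change -0.15, adjusted p = 0.000348), falls that passed under every alternative run. MUC13 was at 218 ± 3.22 CPM in rhSP-D cells and 208 ± 9.59 CPM in vehicle cells (log2 change 0.07, adjusted p = 0.101) and MUC1 at 14.3 ± 0.294 CPM in rhSP-D cells and 14.4 ± 0.915 CPM in vehicle cells (log2 change -0.002, adjusted p = 0.992).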
